A study of Rattus norvegicus with 12 samples.

Results

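The collagen chain genes are those whose symbol in the expression table reads Col, a number, the letter a and a second number, for the collagen type and the chain. The rule used no expression value and found 32 genes among 18344 rows, with 1 row for each symbol. A list of 45 known chains held all 32, and the other 13, among them Col1a2, Col4a3, Col4a4, Col4a6 and Col6a3, were not analysed here. Their messenger RNA had been sequenced from poly-A selected total RNA in 12 libraries of rat cells, all exposed to oxygen-glucose deprivation and reperfusion (OGD/R), a culture model of ischaemia. The 4 groups of 3 libraries were OGD/R with si-CIRBP, OGD/R with si-NC, OGD/R with CIRBP and OGD/R with NC, and libraries of cells without OGD/R do not enter. The labels do not spell out these 4 names, nor give a dose, a duration or a count of clones. The si-CIRBP libraries are set against si-NC and the CIRBP libraries against NC, and the control groups si-NC and NC against each other, as the study aimed treatments at Cirbp, which encodes a cold-inducible protein that binds RNA. The titles give the cells as H9C2, a line from embryonic rat heart with features of myoblasts. The cell line field reads Rat Astrocytes, and the labels do not settle which is right. Replicates are called biological without a statement that they came from separate cultures, so the p-values below measure the spread between these libraries.

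Collagens are matrix proteins in which chains wind around each other into a stiff helix. Fibrillar types I, III, V and XI build the fibrils that carry tension, type IV forms the sheet-like network under cells, type VI forms beaded filaments around cells, and fibril-associated types sit on fibril surfaces and link them to other matrix. In the injured heart, fibroblasts and myofibroblasts lay down types I and III as scar, whereas myocytes and Schwann cells are wrapped in basement membrane with type IV. Type VI lies just outside it. Many collagens need several different chains in a fixed combination, so the levels of partner chains are given together.

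Levels are in FPKM, in which the fragments of a gene are divided by its length and by the mapped total of the library, so they may be compared between genes. The depth relative to NC library 1 was 0.842 to 1.03 in the other libraries, and the absolute depth is unknown. Cirbp itself was at 26.5, 28.6 and 27.7 FPKM in libraries labelled si-CIRBP, against 29.0, 24.2 and 27.0 FPKM in si-NC. Its values overlapped there, so the label si-CIRBP is not borne out by Cirbp mRNA, and the group is called by its label throughout. In CIRBP the gene was at 34.3, 36.5 and 36.5 FPKM, against 19.0, 19.8 and 20.1 FPKM in NC, with no overlap. Among markers of the labelled cells, Gfap of astrocytes was at 1.44 to 6.89 FPKM and Aldh1l1 at or below 0.287 FPKM in all 12 libraries, while S100b, also used as an astrocyte marker and found in Schwann cells too, was at 111 to 188 FPKM. The myoblast factor Myod1 was at 11.0, 9.83 and 11.6 FPKM in libraries labelled si-CIRBP, 1.74, 21.6 and 15.2 FPKM in si-NC, and at most 0.0798 FPKM in CIRBP and 0.0819 FPKM in NC. Sox10, a factor of Schwann cells and oligodendrocytes, was at 123 to 203 FPKM everywhere. Library 1 of si-NC stood apart from libraries 2 and 3 of its group in several collagen and marker genes, and results that rest on it are given with and without it.

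A gene was tested where at least 3 of the 12 libraries reached 1 FPKM, and called at an adjusted p under 0.05 with limma on log2(FPKM + 1), the scale of all log2 fold changes below, which understates changes of low genes. Of the 32 collagen chain genes 23 were tested. Col17a1 and Col22a1 reached 1 FPKM only in CIRBP, Col8a2 only in the libraries labelled si-CIRBP, Col4a5 and Col11a1 only in both si groups, Col20a1 only in si-NC and NC, and Col9a2 only in CIRBP and NC. Whether these 7 genes were tested at all depended on 1 or 2 groups, so counts over the tested genes are descriptions. So are the calls and p-values of these 7 genes in comparisons that involve those groups.

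In CIRBP against NC, 13 collagen chain genes rose and 4 fell, or 17 of 23 tested, where 70.7% of all 14257 genes were called, 27.9% higher and 42.8% lower. The share of collagen genes called was close to that background, while the direction leaned the other way. Their median log2 fold change was 0.29, against -0.08 over all genes. The rises comprised both type VI chains, Col4a1, Col4a2, Col5a1, Col5a3, Col3a1, Col8a1, Col15a1, Col16a1, Col17a1, Col18a1 and Col22a1, and the falls Col11a2, Col20a1, Col27a1 and Col8a2. The values of the groups did not overlap in 19 genes, 15 higher and 4 lower, against 74.7% of all genes (29.7% higher and 45% lower). Without the filter on low values, 16 of the 32 genes rose and 6 fell. The share of all genes called in that fit is not given here, so this count is not read against a background. Setting libraries to a common median moved the median of all genes by over 0.1, to 0.03, and gave 5324 genes higher and 4763 lower, where median ratios gave 5123 higher and 4983 lower and the deposited scale 3978 higher and 6099 lower. With either rescaling 16 collagen genes rose and 4 fell.

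In the libraries labelled si-CIRBP against si-NC, 4 collagen chain genes were called, Col16a1 and Col5a3 higher and Col20a1 and Col27a1 lower, where 8.1% of all genes were called, 1.87% higher and 6.24% lower. The median log2 fold change was 0.37 over the 23 tested genes and -0.04 over all genes. Groups did not overlap in 10 collagen genes, 7 higher and 3 lower, against 36.1% of all genes. Over all genes 266 were higher and 889 lower, which became 618 higher and 570 lower with a common median and 465 higher and 708 lower by median ratios, while Col20a1 was then not called. These calls were fragile. Without si-CIRBP library 2, si-CIRBP library 3 or si-NC library 3 none of the 4 was called, and without si-NC library 1 or 2 Col16a1 was the one call left. All 4 genes, 100% of the calls here and 23.5% of the 17 calls of CIRBP against NC, were called in the same direction in CIRBP against NC, and the 2 comparisons share no library. This was also so of nearly all genes called in si-CIRBP against si-NC, of which 1084 of 1155, or 93.9%, were called in the same direction in CIRBP against NC (10.8% of the calls there). The difference between these arms, CIRBP minus NC less si-CIRBP minus si-NC over all 12 libraries, was called in 4 collagen genes, where 17.8% of all genes were called (6.87% higher and 10.9% lower), with Col5a3 and Col18a1 higher and Col8a2 and Col20a1 lower on the CIRBP side. That count was 9, 7 and 7 without si-NC library 1, si-NC library 2 and si-CIRBP library 1. The count over all genes moved as well, from 2535 to a range of 1596 to 4503 without single libraries, highest without si-CIRBP library 1. Over all genes this difference was called higher in 980 and lower in 1555, against 1310 and 1376 by median ratios.

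In si-NC against NC, the control groups, 3 collagen chain genes were higher and 5 lower, where 31.6% of all genes were called, 10.2% higher and 21.4% lower. The higher genes were Col1a1, Col3a1 and Col4a5, and the lower ones Col5a3, Col11a2, Col12a1, Col16a1 and Col20a1. The median was 0.00 over the tested collagen genes and -0.07 over all genes. Groups did not overlap in 12 collagen genes, 5 higher and 7 lower, against 53.1% of all genes. Without si-NC library 1, 10 collagen genes were higher and 6 lower, and the count over all genes was 7033 in place of 4503. This comparison shares si-NC and NC libraries with the others, and whether these controls came from the same cells and procedure is not stated in the labels, so treatment and source cannot be told apart.

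**Figure D1:**
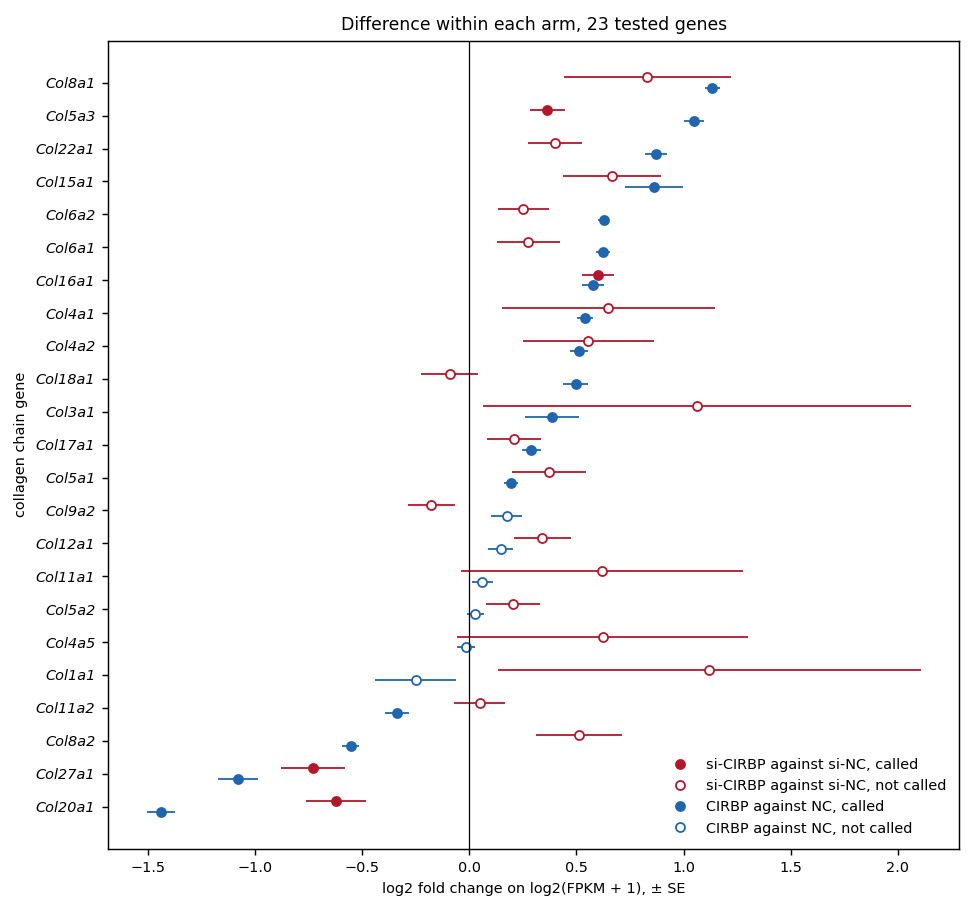
Log2 fold change on log2(FPKM + 1), with its standard error, of the 23 tested collagen chain genes in the libraries labelled si-CIRBP against si-NC (red, upper point of each pair) and in CIRBP against NC (blue, lower point). Filled points are called, 4 in red and 17 in blue, and the red error bars of Col1a1 and Col3a1 are the longest.

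Among the fibrillar chains, Col1a1 and Col3a1, which encode chains of the major fibril collagens of scar and skin, had the widest range in FPKM of all members. Col1a1 was at 314, 539.6 and 683 FPKM in libraries labelled si-CIRBP, 42.4, 661 and 395 FPKM in si-NC, 1.02, 1.20 and 1.79 FPKM in CIRBP and 1.19, 2.36 and 1.84 FPKM in NC. Col3a1 was at 217, 334 and 447 FPKM in libraries labelled si-CIRBP, 27.9, 475 and 261 FPKM in si-NC, 1.31, 1.69 and 2.01 FPKM in CIRBP and 0.810, 1.28 and 1.03 FPKM in NC. Both genes were thus abundant in the si groups and at 0.810 to 2.36 FPKM in CIRBP and NC, and library 1 of si-NC lay far below libraries 2 and 3. In si-NC against NC the log2 fold change was 6.35 (SE 0.971, adjusted p = 0.00751) for Col1a1 and 6.24 (SE 0.981, adjusted p = 0.00812) for Col3a1. Without library 1 these log2 fold changes became 7.54 (SE 0.266, adjusted p = 5.90e-05) and 7.44 (SE 0.254, adjusted p = 5.63e-05).

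In the libraries labelled si-CIRBP against si-NC neither gene was called, at log2 fold changes of 1.12 (SE 0.987, adjusted p = 0.514) for Col1a1 and 1.06 (SE 0.999, adjusted p = 0.544) for Col3a1, and the sign of each turned without si-NC library 1 (-0.07 and -0.14). In CIRBP against NC Col1a1 overlapped (adjusted p = 0.282), while Col3a1 did not and was called higher at a log2 fold change of 0.38 (SE 0.126, adjusted p = 0.0324). That call was lost without CIRBP library 2 or 3 or NC library 1 or 3, and its adjusted p ranged over 0.0136 to 0.724 among the alternatives. The ratio of Col1a1 to Col3a1 FPKM stayed within 1.45 to 1.61 in the libraries labelled si-CIRBP and 1.39 to 1.52 in si-NC, although library 1 of si-NC held far less of both than libraries 2 and 3. It was 0.713 to 0.891 in CIRBP and 1.47 to 1.84 in NC (difference -0.90, two-sided exact permutation p = 0.1, the smallest that 3 against 3 allows, adjusted 0.3 over 15 ratio tests).

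The drop in si-NC library 1 was shared with other genes. Relative to the mean of libraries 2 and 3, library 1 held 0.0804 of the Col1a1 level, 0.0759 of Col3a1, 0.0906 of Col4a5 and 0.0688 of Col11a1. The same ratio was 0.0881 for Acta2, smooth muscle actin, 0.0733 for Thy1, a fibroblast surface protein, 0.0946 for Myod1 and 0.0779 for Nid1, a basement membrane linker. It was below 0.5 in 5 of 5 smooth muscle, 5 of 5 skeletal myoblast, 4 of 5 fibroblast and 1 of 4 cardiac myocyte markers with a row. The exceptions in these lists were Pdgfra at 1.39, Myh6 at 1.70, Nppa at 1.90 and Tnni3 at 1.30. Outside them it was below 0.5 in 2 of 5 astrocyte and 1 of 3 epithelial markers, Slc1a3 at 0.0858 and Krt8 at 0.0817 among them. The same held for 1 of 4 chondrocyte and 1 of 2 macrophage markers. It held for 0 of 2 endothelial and 0 of 6 Schwann cell and oligodendrocyte markers. The share of all genes below 0.5 was not counted. The ratio was 1.28 for Sox10 and 1.34 for Col6a1. Col4a1, Col8a2, Col8a1 and Col4a2 lay between, at 0.264, 0.280, 0.363 and 0.453. In that library some collagen chain genes were thus low together with smooth muscle, myoblast and most fibroblast markers, and with some markers of other lists. The type VI chains, Sox10 and Pdgfra were not low. The summed level of 5 of 5 listed smooth muscle and myofibroblast markers was 872 to 1063 FPKM in libraries labelled si-CIRBP, 129.7 to 1636 FPKM in si-NC, 3.16 to 3.80 FPKM in CIRBP and 5.51 to 8.34 FPKM in NC. For 5 of 6 listed fibroblast markers it was 144 to 182 FPKM in libraries labelled si-CIRBP, 90.1 to 198 FPKM in si-NC, 154 to 167 FPKM in CIRBP and 87.4 to 88.8 FPKM in NC. Most of that sum in CIRBP and NC was Pdgfra, at 152 to 165 FPKM in CIRBP and 86.0 to 87.9 FPKM in NC, while Thy1, Dcn, Lum and Postn were each at or under 2.18 FPKM there. Their part in the collagen differences was not tested, and in bulk RNA fewer cells of a type and less RNA per cell cannot be told apart.

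**Figure D2:**
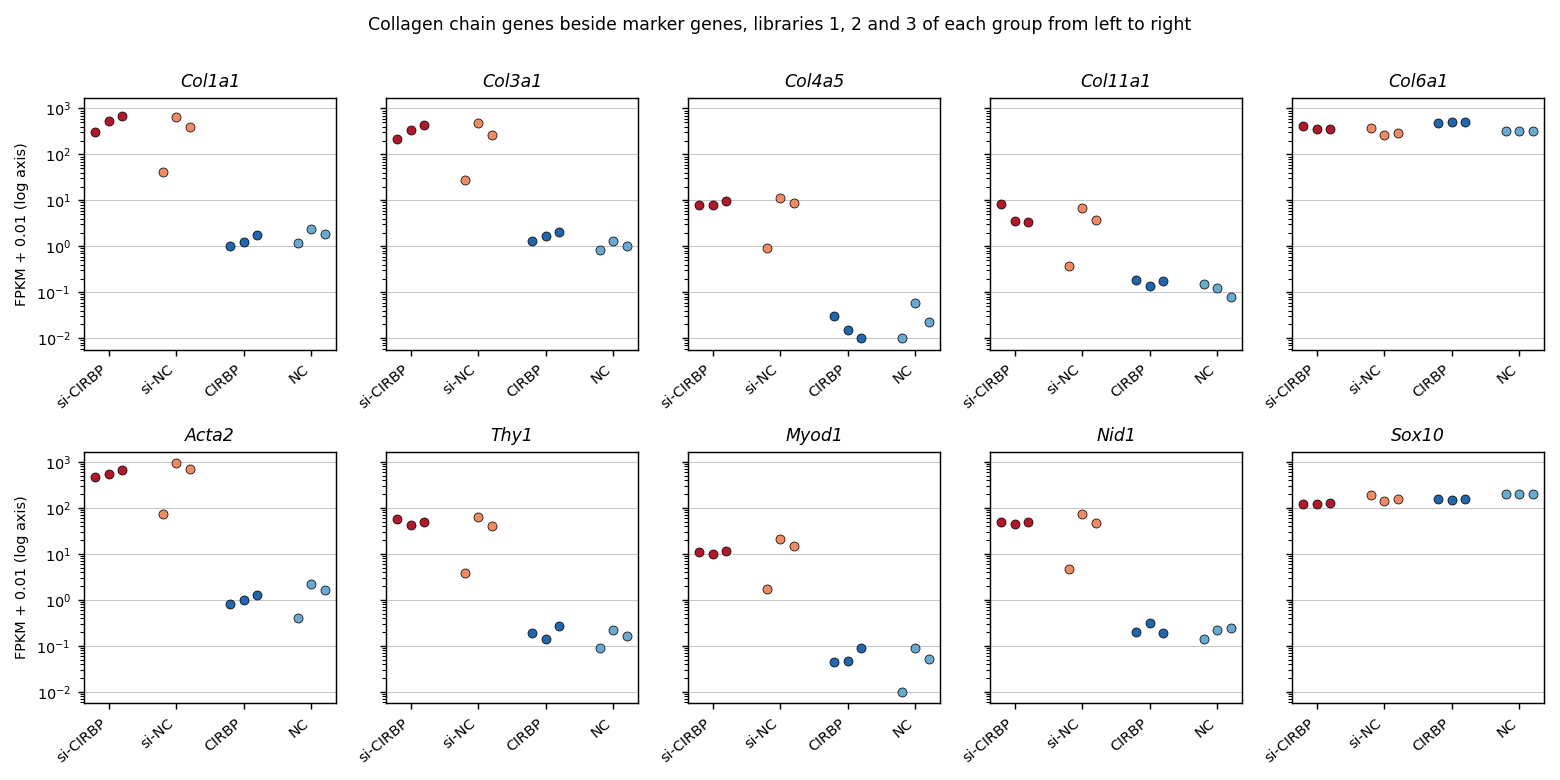
FPKM plus 0.01 on a log axis in each library (points, libraries 1 to 3 from left to right within a group) for 5 collagen chain genes (upper row) and 5 other genes (lower row), with groups si-CIRBP, si-NC, CIRBP and NC from left to right. Col1a1, Col3a1, Col4a5 and Col11a1 are low in si-NC library 1 and lower still in CIRBP and NC, as are Acta2, Thy1, Myod1 and Nid1, whereas Col6a1 (260.1 to 509 FPKM) and Sox10 (123 to 203 FPKM) are high in every library, si-NC library 1 included.

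Type V chains regulate the diameter of fibrils, and all 3 were expressed. Col5a2 was the most abundant of them, at 283, 337 and 337 FPKM in libraries labelled si-CIRBP, 238, 306 and 288 FPKM in si-NC, 239, 226 and 245 FPKM in CIRBP and 234, 239 and 224 FPKM in NC. It was called in none of the comparisons (log2 fold change 0.21, 0.03 and 0.25 for si-CIRBP against si-NC, CIRBP against NC and si-NC against NC), but was called higher in CIRBP when libraries were scaled to one median or by median ratios, and higher in si-NC without its library 1. Col5a1 was at 76.8, 77.1 and 74.7 FPKM in libraries labelled si-CIRBP, 44.8, 74.1 and 60.6 FPKM in si-NC, 62.8, 62.9 and 61.7 FPKM in CIRBP and 54.2, 56.7 and 52.4 FPKM in NC. The CIRBP values lay above the NC values by a small margin, with a log2 fold change of 0.19 (SE 0.0311, adjusted p = 0.00152), a call lost when the spread was estimated over all 12 libraries (range of adjusted p 8.47e-05 to 0.250, the highest in that fit).

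Col5a3, the chain with the most restricted distribution of type V, was at 78.3, 80.2 and 82.3 FPKM in CIRBP, against 37.7, 40.9 and 36.3 FPKM in NC. All CIRBP values lay well above the NC values, 2.09-fold of the means and with a log2 fold change of 1.05 (SE 0.0462, adjusted p = 5.54e-06). Libraries labelled si-CIRBP held 29.8, 29.3 and 30.3 FPKM, against 24.8, 21.1 and 23.1 FPKM in si-NC, again without overlap but closer together, with a log2 fold change of 0.36 (SE 0.0815, adjusted p = 0.0471). Leaving out any 1 of those 6 libraries lost that call (range of adjusted p 0.00183 to 0.171). The difference in log2 fold change between the arms, which is the log2 fold change of CIRBP against NC minus that of si-CIRBP against si-NC, was 0.68 (SE 0.0892, adjusted p = 0.000961) and was called under all 18 alternatives. Col5a3 was also lower in si-NC than in NC, at a log2 fold change of -0.71 (SE 0.0751, adjusted p = 0.00333).

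Type XI chains share the fibril core with type II in cartilage and with type V elsewhere. Col11a1 was at 8.22, 3.50 and 3.40 FPKM in libraries labelled si-CIRBP, 0.362, 6.78 and 3.75 FPKM in si-NC, 0.180, 0.126 and 0.167 FPKM in CIRBP and 0.145, 0.114 and 0.0700 FPKM in NC. It was above 3 FPKM in the si groups except library 1 of si-NC, and under 1 FPKM in that library and in CIRBP and NC. Its difference between si-NC and NC was not called, with a log2 fold change of 1.73 (SE 0.605, adjusted p = 0.0703), but was without library 1, 2.45 (SE 0.217, adjusted p = 0.000740). Col11a1 was tested only because it reached 1 FPKM in the si groups, so this difference is a description. Col11a2 followed another pattern, at 1.02, 1.24 and 1.19 FPKM in libraries labelled si-CIRBP, 1.24, 0.976 and 1.02 FPKM in si-NC, 2.03, 1.91 and 2.21 FPKM in CIRBP and 2.85, 2.92 and 2.78 FPKM in NC. Its NC values were the highest, and it was lower in CIRBP than in NC, with a log2 fold change of -0.34 (SE 0.0566, adjusted p = 0.00194), and lower in si-NC than in NC, -0.89 (SE 0.0984, adjusted p = 0.00348). Col2a1, the type II chain of cartilage, stayed at or under 0.667 FPKM in every library and was not tested.

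Col27a1, a fibrillar chain of cartilage and developing tissues, was the most abundant of the members that fell. It was at 10.3, 10.7 and 13.0 FPKM in CIRBP, against 26.3, 25.7 and 23.0 FPKM in NC. Every CIRBP value was lower than every NC value, to 0.454 of the mean, log2 fold change -1.08 (SE 0.0931, adjusted p = 8.55e-05). It was at 13.4, 17.1 and 18.2 FPKM in libraries labelled si-CIRBP, against 31.8, 24.1 and 26.8 FPKM in si-NC, also with no overlap, with a log2 fold change of -0.73 (SE 0.149, adjusted p = 0.0391). This second call was lost without si-CIRBP library 2 or 3 or any library of si-NC (range of adjusted p 0.00227 to 0.144), with the same sign each time. The difference in log2 fold change between the arms was not called, -0.35 (SE 0.186, adjusted p = 0.230).

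**Figure D3:**
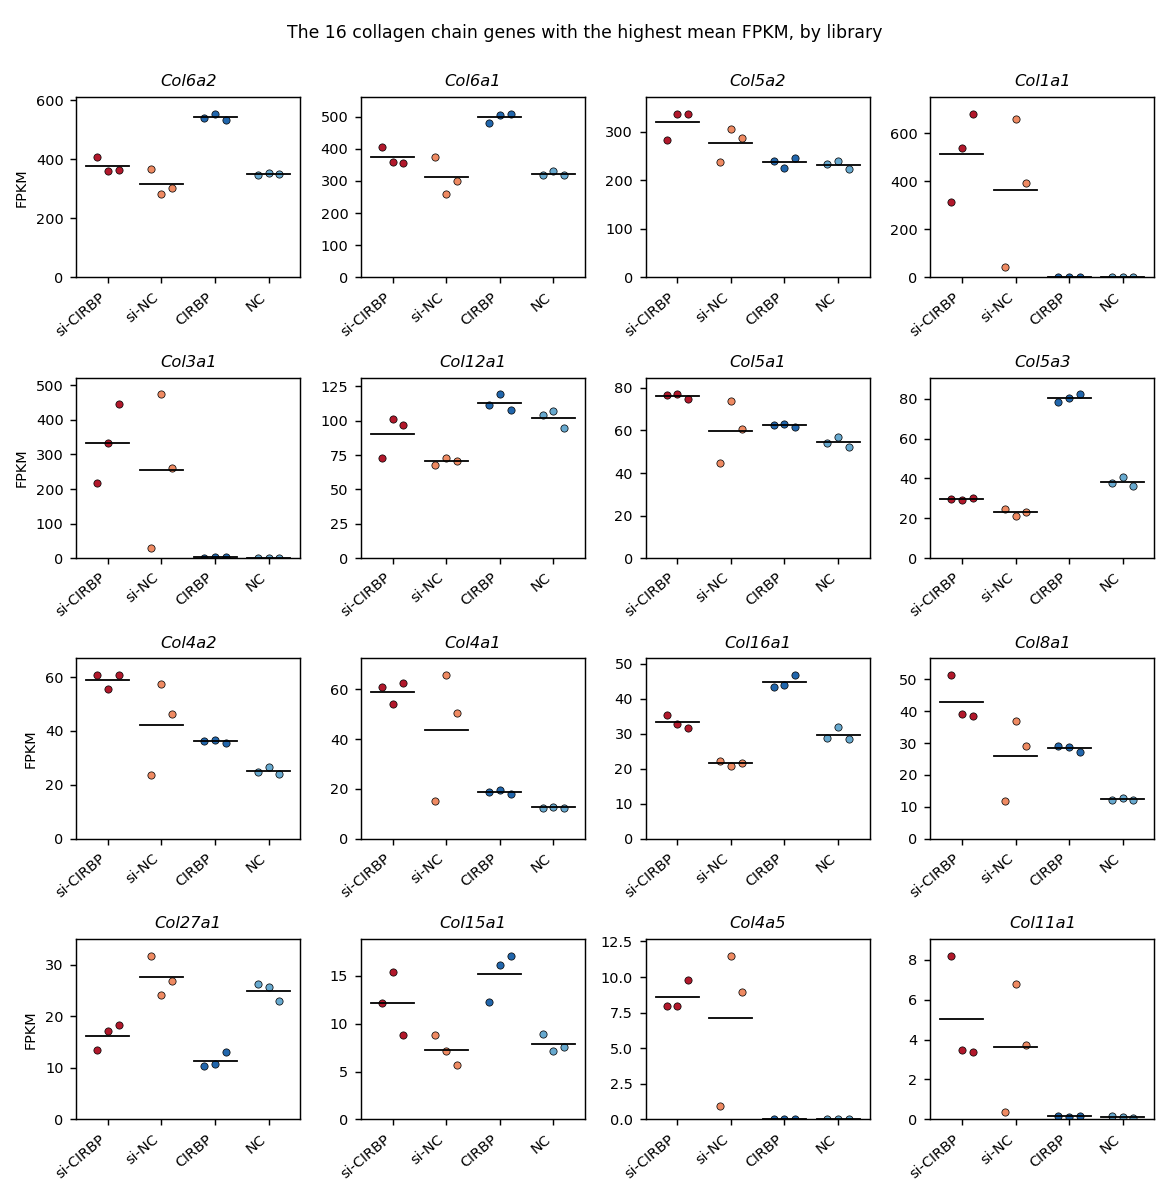
FPKM in each library (points) and the group mean (line) for the 16 collagen chain genes with the highest mean FPKM, groups si-CIRBP, si-NC, CIRBP and NC from left to right, each panel with its own linear axis from 0. Col6a1, Col6a2, Col5a3, Col16a1 and Col8a1 lie higher in CIRBP than in NC, Col27a1 lower, and Col1a1, Col3a1, Col4a5 and Col11a1 are near 0 in both.

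Type VI collagen, the beaded filament around muscle fibres, nerves and many other cells, had the most abundant chains, ranked first and second by mean FPKM. Col6a1 was at 406, 358 and 355 FPKM in libraries labelled si-CIRBP, 374, 260.1 and 298 FPKM in si-NC, 479, 505 and 509 FPKM in CIRBP and 318, 329.8 and 319 FPKM in NC. Col6a2 was at 407, 359 and 365 FPKM in libraries labelled si-CIRBP, 366, 284 and 303 FPKM in si-NC, 539, 556 and 533 FPKM in CIRBP and 347, 355 and 351 FPKM in NC. In both genes the 3 CIRBP libraries stood above all others. All libraries labelled si-CIRBP lay above all NC libraries, and the range of si-NC overlapped both of these groups. The rise in CIRBP against NC was a log2 fold change of 0.63 (SE 0.0327, adjusted p = 1.00e-05) for Col6a1 and 0.63 (SE 0.0261, adjusted p = 4.56e-06) for Col6a2, called under all 12 alternatives. Neither was called in si-CIRBP against si-NC, at a log2 fold change of 0.28 (SE 0.146, adjusted p = 0.277) and 0.25 (SE 0.119, adjusted p = 0.228), where library 1 was the highest in each group. The difference in log2 fold change between the arms was not called for either, at 0.35 (adjusted p = 0.150) and 0.37 (adjusted p = 0.0569), and for Col6a2 it was called in 5 of 18 alternatives.

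The ratio of Col6a2 to Col6a1 FPKM, 2 genes that lie next to each other and whose chains form one molecule, stayed near 1 in every library. It was 1.00, 1.00 and 1.03 in the libraries labelled si-CIRBP, 0.981, 1.09 and 1.02 in si-NC, 1.13, 1.10 and 1.05 in CIRBP and 1.09, 1.08 and 1.10 in NC. In CIRBP against NC it differed by 0.00148 (two-sided exact permutation p = 1), which is less than the spread between libraries.

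Type IV chains form the basement membrane network. Col4a1 and Col4a2, which build its common molecule, are transcribed away from each other from starts with 76 bases between them on chromosome 16 (RefSeq, GRCr8). The 250 bases before each start are shown because these windows overlap, and the capitals mark the 76 bases between the starts, which both windows share as reverse complements.
Col4a1, chr16:84885347-84885596 (plus strand, GRCr8): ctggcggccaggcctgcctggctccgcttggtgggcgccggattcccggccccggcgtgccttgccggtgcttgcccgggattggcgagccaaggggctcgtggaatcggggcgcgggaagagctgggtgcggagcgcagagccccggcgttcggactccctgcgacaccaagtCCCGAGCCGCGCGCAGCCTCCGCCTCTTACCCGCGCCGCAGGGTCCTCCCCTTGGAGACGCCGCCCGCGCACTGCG
Col4a2, chr16:84885521-84885770 (minus strand, GRCr8): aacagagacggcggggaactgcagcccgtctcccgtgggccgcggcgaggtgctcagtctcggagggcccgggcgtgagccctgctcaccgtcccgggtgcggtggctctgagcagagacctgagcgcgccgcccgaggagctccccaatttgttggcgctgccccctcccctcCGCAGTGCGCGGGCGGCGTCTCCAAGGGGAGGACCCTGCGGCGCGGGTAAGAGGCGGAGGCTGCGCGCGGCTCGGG

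Col4a1 was at 60.9, 54.0 and 62.5 FPKM in libraries labelled si-CIRBP, 15.3, 65.9 and 50.3 FPKM in si-NC, 18.8, 19.5 and 18.0 FPKM in CIRBP and 12.5, 12.9 and 12.5 FPKM in NC. Col4a2 was at 60.8, 55.4 and 60.6 FPKM in libraries labelled si-CIRBP, 23.5, 57.3 and 46.4 FPKM in si-NC, 36.5, 36.7 and 35.7 FPKM in CIRBP and 24.7, 26.7 and 24.1 FPKM in NC. In CIRBP both lay above NC, at a log2 fold change of 0.54 (SE 0.0373, adjusted p = 3.24e-05) for Col4a1 and 0.51 (SE 0.0411, adjusted p = 6.07e-05) for Col4a2, and both calls were lost with a spread estimated over all 12 libraries (adjusted p 0.274 and 0.0929, the highest among the alternatives, against 1.39e-05 and 1.68e-05 at the lowest). Library 1 of si-NC was again below the others, and neither gene was called in si-CIRBP against si-NC, with a log2 fold change of 0.65 (SE 0.498, adjusted p = 0.452) and 0.56 (SE 0.305, adjusted p = 0.295). In si-NC against NC they were at a log2 fold change of 1.49 (SE 0.499, adjusted p = 0.0633) and 0.64 (SE 0.304, adjusted p = 0.148), and without si-NC library 1 both were higher in si-NC, 2.11 (SE 0.111, adjusted p = 0.000169) and 1.01 (SE 0.0974, adjusted p = 0.000944). Between the arms the log2 fold change of Col4a1 differed by -0.11 (adjusted p = 0.914). It turned to a called 0.50 (adjusted p = 0.0293) without si-NC library 1.

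The ratio of Col4a2 to Col4a1 FPKM was lower in both si groups than in CIRBP and NC. It was 0.998, 1.03 and 0.970 in the libraries labelled si-CIRBP, 1.53, 0.869 and 0.922 in si-NC, 1.94, 1.88 and 1.98 in CIRBP and 1.98, 2.08 and 1.92 in NC. Si-NC library 1, at 1.53, lay between the other si libraries and NC. The difference between si-NC and NC was -0.88 (two-sided exact permutation p = 0.1, the smallest possible, adjusted 0.3 over 15 tests), and that between CIRBP and NC was -0.06 with overlap (p = 0.5 by the same exact test).

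Col4a5, a chain of the basement membrane of kidney, smooth muscle and other tissues, was at 7.99, 7.99 and 9.78 FPKM in libraries labelled si-CIRBP and 0.925, 11.5 and 8.91 FPKM in si-NC. In CIRBP and NC no library was over 0.0492 FPKM, and 1 library of each was listed at 0. It was higher in si-NC than in NC, at a log2 fold change of 2.60 (SE 0.682, adjusted p = 0.0329), a call lost without si-NC library 2 or 3 or any NC library (range of adjusted p 6.60e-05 to 0.108) and at 3.45 (SE 0.128, adjusted p = 6.60e-05) without si-NC library 1. Col4a5 was tested only because it reached 1 FPKM in the si groups, so this difference is a description. The promoter windows of Col4a5 and Col11a1, on chromosomes X and 2, are shown because these genes share the pattern of Col1a1 and Col3a1 over the libraries. Capitals mark matches, on either strand, to 3 motifs. These are TATAAA, a form of the box that positions transcription start, then CCAAT, the box bound by NF-Y, and lastly GGGCGG, the box bound by Sp1.
Col4a5, chrX:109907109-109907358 (plus strand, GRCr8): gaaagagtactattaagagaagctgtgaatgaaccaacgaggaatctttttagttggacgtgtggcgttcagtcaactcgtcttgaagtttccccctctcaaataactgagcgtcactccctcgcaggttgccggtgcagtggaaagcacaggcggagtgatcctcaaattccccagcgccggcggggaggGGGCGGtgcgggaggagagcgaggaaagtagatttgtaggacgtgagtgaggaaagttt
Col11a1, chr2:204508886-204509135 (plus strand, GRCr8): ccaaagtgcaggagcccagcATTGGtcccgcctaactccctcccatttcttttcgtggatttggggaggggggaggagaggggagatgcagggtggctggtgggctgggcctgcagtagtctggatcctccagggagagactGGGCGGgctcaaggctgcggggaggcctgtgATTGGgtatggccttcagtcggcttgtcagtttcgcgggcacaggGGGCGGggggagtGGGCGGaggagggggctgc

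Of the 32 genes 24 have a window in the RefSeq table. TATAAA was found in 3 of these windows, CCAAT in 8 and GGGCGG in 14. Over all 33469 promoters of the same table the shares were 12.9% for TATAAA, 34.0% for CCAAT and 30.5% for GGGCGG. The window of Col4a5 held 1 match, to GGGCGG, and that of Col11a1 held 2 matches to CCAAT and 3 to GGGCGG. A match describes these letters and not a bound site.

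**Figure D4:**
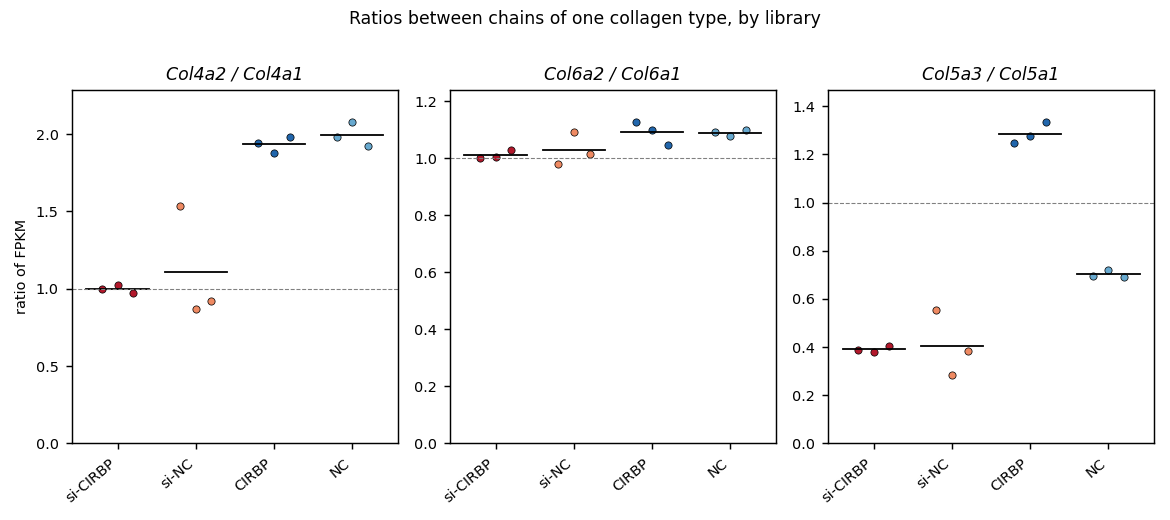
Ratio of FPKM between chains of one collagen type in each library (points) with the group mean (line), groups si-CIRBP, si-NC, CIRBP and NC from left to right, axis from 0, dashed line at 1. Col4a2 over Col4a1 is near 1 in most si libraries and near 2 in CIRBP and NC, Col6a2 over Col6a1 is near 1 in all 12 libraries, and Col5a3 over Col5a1 is 1.25 to 1.33 in CIRBP and 0.693 to 0.722 in NC.

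Type VIII is a short-chain collagen of vessel walls and corneal membranes, and its chains parted. Col8a1 was at 51.4, 39.0 and 38.4 FPKM in libraries labelled si-CIRBP, 11.9, 36.8 and 29.0 FPKM in si-NC, 29.2, 28.8 and 27.4 FPKM in CIRBP and 12.3, 12.8 and 12.1 FPKM in NC. It rose in CIRBP against NC to 2.29-fold of the mean and had the largest log2 fold change of all members on log2(FPKM + 1), at 1.13 (SE 0.0360, adjusted p = 2.06e-06). In si-CIRBP against si-NC the groups did not overlap either, with library 1 of si-NC far below the rest, but the difference was not called, with a log2 fold change of 0.83 (SE 0.390, adjusted p = 0.228). Col8a2 was at 1.33, 1.27 and 1.65 FPKM in libraries labelled si-CIRBP, 0.267, 0.938 and 0.968 FPKM in si-NC, 0.0402, 0.0341 and 0.0556 FPKM in CIRBP and 0.539, 0.542 and 0.512 FPKM in NC. It fell in CIRBP to 0.0816 of the NC mean, with a log2 fold change of -0.55 (SE 0.0404, adjusted p = 4.05e-05), whereas the si-CIRBP values lay above the si-NC values without a call, 0.51 (SE 0.202, adjusted p = 0.164). The difference in log2 fold change between the arms for Col8a2 was -1.07 (SE 0.230, adjusted p = 0.0104) and was called under all 18 alternatives. Col10a1, the short-chain collagen of hypertrophic cartilage, reached 1 FPKM in a single library, si-CIRBP library 3, at 1.53 FPKM.

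Among fibril-associated collagens, Col12a1, which links fibrils in tendon and muscle, was the most abundant, at 73.0, 101 and 97.1 FPKM in libraries labelled si-CIRBP, 67.6, 73.2 and 71.0 FPKM in si-NC, 111, 119 and 108 FPKM in CIRBP and 104, 107 and 94.5 FPKM in NC. The CIRBP values lay just above the NC values and were not called, with a log2 fold change of 0.15 (SE 0.0578, adjusted p = 0.0604), but were called in 4 of 12 alternatives, both rescalings and the fit without NC library 2 among them. Si-NC was lower than NC without overlap, with a log2 fold change of -0.52 (SE 0.0617, adjusted p = 0.00405). Col16a1, a chain of cartilage and skin matrix, was at 35.4, 32.8 and 31.7 FPKM in libraries labelled si-CIRBP, 22.2, 20.9 and 21.7 FPKM in si-NC, 43.4, 43.9 and 46.8 FPKM in CIRBP and 28.7, 31.9 and 28.4 FPKM in NC. It was higher in each treated group than in its control, at 0.60 (SE 0.0747, adjusted p = 0.0123) for si-CIRBP against si-NC and 0.58 (SE 0.0524, adjusted p = 0.000107) for CIRBP against NC, and the log2 fold changes of the arms differed by -0.02 (adjusted p = 0.877). Its call in the si arm held in 8 of 12 alternatives and was lost without si-CIRBP library 2 or 3 or si-NC library 3 (range of adjusted p 8.12e-05 to 0.0850). Si-NC was lower than NC, with a log2 fold change of -0.44 (SE 0.0593, adjusted p = 0.00542).

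Col20a1, another fibril-associated chain, was at 0.757, 0.367 and 0.402 FPKM in libraries labelled si-CIRBP, 1.37, 1.29 and 1.26 FPKM in si-NC, 0.623, 0.644 and 0.583 FPKM in CIRBP and 3.33, 3.73 and 3.12 FPKM in NC. NC was the highest group and both treated groups were the lowest. Col20a1 was tested only because it reached 1 FPKM in si-NC and NC, so its falls against these groups are descriptions. CIRBP held 0.182 of the NC mean, with a log2 fold change of -1.44 (SE 0.0659, adjusted p = 6.26e-06), the deepest fall of all members on log2(FPKM + 1). By the ratio of group means Col8a2 fell further, to 0.0816 of its NC mean. The si-CIRBP libraries held 0.390 of the si-NC mean, with a log2 fold change of -0.62 (SE 0.139, adjusted p = 0.0472), a call that held in 3 of 12 alternatives and was lost without si-CIRBP library 2 or 3 or any si-NC library (range of adjusted p 0.00242 to 0.161). The difference in log2 fold change between the arms was -0.82 (SE 0.160, adjusted p = 0.00661) and was lost with a pseudocount of 0.1 (range of adjusted p 0.00301 to 0.0536). Col22a1, a chain of tissue junctions such as that of muscle and tendon, was at 0.470, 0.769 and 0.664 FPKM in libraries labelled si-CIRBP, 0.253, 0.177 and 0.274 FPKM in si-NC, 1.61, 1.45 and 1.65 FPKM in CIRBP and 0.431, 0.387 and 0.392 FPKM in NC. It rose in CIRBP against NC to 3.89-fold of the mean, 0.87 (SE 0.0519, adjusted p = 1.71e-05), and also lay higher in the libraries labelled si-CIRBP than in si-NC, uncalled at a log2 fold change of 0.40 (SE 0.125, adjusted p = 0.0990). Col22a1 was tested only because it reached 1 FPKM in CIRBP, so its rise there is a description. Col9a2 of the cartilage type IX was called in no comparison (adjusted p 0.355, 0.0768 and 0.107) and had group means of 0.609 to 1.48 FPKM.

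Both multiplexins, basement membrane zone collagens whose C-terminal pieces restrain vessel growth, rose in CIRBP. Col15a1 was at 12.2, 15.4 and 8.84 FPKM in libraries labelled si-CIRBP, 8.87, 7.12 and 5.67 FPKM in si-NC, 12.3, 16.1 and 17.1 FPKM in CIRBP and 8.93, 7.10 and 7.59 FPKM in NC. Its CIRBP values exceeded all NC values, with a log2 fold change of 0.86 (SE 0.135, adjusted p = 0.00137), and the si-CIRBP values overlapped si-NC by the margin between 8.84 and 8.87 FPKM, 0.67 (SE 0.227, adjusted p = 0.122). Col18a1 was at 1.19, 1.25 and 1.41 FPKM in libraries labelled si-CIRBP, 1.12, 1.64 and 1.57 FPKM in si-NC, 2.43, 2.46 and 2.53 FPKM in CIRBP and 1.54, 1.31 and 1.53 FPKM in NC. It rose in CIRBP, with a log2 fold change of 0.50 (SE 0.0579, adjusted p = 0.000340), and had the opposite sign without a call in the si arm, -0.09 (SE 0.134, adjusted p = 0.703). The difference in log2 fold change between the arms was 0.59 (SE 0.146, adjusted p = 0.0200), lost without si-NC library 3, CIRBP library 2 or NC library 2 (range of adjusted p 0.00344 to 0.0552). Col17a1, the transmembrane collagen of epithelial hemidesmosomes, was near 1 FPKM, at 1.03, 1.05 and 1.04 FPKM in CIRBP and 0.646, 0.712 and 0.648 FPKM in NC, and was called at a log2 fold change of 0.29 (SE 0.0449, adjusted p = 0.00131). It was tested only because it reached 1 FPKM in CIRBP, so this call is a description.

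The 9 genes not tested were Col2a1, Col7a1, Col9a1, Col9a3, Col10a1, Col13a1, Col14a1, Col26a1 and Col28a1, with means of 0.0994 to 0.627 FPKM over the 12 libraries. Without the filter, Col9a1, Col14a1 and Col28a1 were called higher and Col2a1 and Col7a1 lower in CIRBP against NC. Group means are given with their SD (n = 3 each) from here on. Those of Col28a1, a chain of peripheral nerve, were 0.507 ± 0.136 FPKM in CIRBP and 0.171 ± 0.0374 FPKM in NC. Col14a1, which binds mature fibrils, averaged 0.496 ± 0.0357 FPKM in CIRBP and 0.275 ± 0.0648 FPKM in NC, and Col7a1, the anchoring fibril chain of skin, 0.197 ± 0.0427 FPKM in CIRBP and 0.327 ± 0.0178 FPKM in NC. Just inside the filter, Col8a2, Col22a1 and Col17a1 had means of 0.679, 0.710 and 0.829 FPKM, and just outside it Col9a3 had 0.627 FPKM.

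Summed over the 32 genes, collagen expression was 2066, 2371 and 2633 FPKM in libraries labelled si-CIRBP, 1308, 2392 and 1901 FPKM in si-NC, 1675, 1720.4 and 1714 FPKM in CIRBP and 1223, 1262 and 1200.0 FPKM in NC. The CIRBP sums lay above all NC sums, and the si groups overlapped. This was 0.257 to 0.528% of all FPKM. Without Col1a1 and Col3a1 the sums were 1497 to 1534 FPKM in libraries labelled si-CIRBP, 1238 to 1257 FPKM in si-NC, 1672 to 1718 FPKM in CIRBP and 1197 to 1259 FPKM in NC. The other 30 genes thus summed to a higher level in the libraries labelled si-CIRBP than in si-NC and in CIRBP than in NC, with no overlap, and si-NC overlapped NC. The narrow range of this sum in si-NC held opposite differences between its libraries. Type VI summed to 740, 544 and 601 FPKM in si-NC libraries 1, 2 and 3, and type IV to 39.7, 135 and 106 FPKM. Col6a1, Col6a2 and Col5a2, the most abundant of the 30, each overlapped between si-CIRBP and si-NC and were not called there.

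Type VI made up 60.8 to 61.7% of the sum in CIRBP and 54.3 to 55.8% in NC, but 27.3 to 39.4% in the libraries labelled si-CIRBP and 22.7 to 56.6% in si-NC. Fibrillar chains made up 22.4 to 23.9% in CIRBP and 28.5 to 29.3% in NC, against 45.7 to 60.6% in the libraries labelled si-CIRBP and 31.5 to 65.6% in si-NC. Type IV made up 3.13 to 3.30% in CIRBP, 3.04 to 3.14% in NC, 4.95 to 6.28% in the libraries labelled si-CIRBP and 3.04 to 5.63% in si-NC. The ratio of Col5a3 to Col5a1 was 1.25 to 1.33 in CIRBP and 0.693 to 0.722 in NC, the highest 2 groups (difference 0.58, two-sided exact permutation p = 0.1, the smallest possible, adjusted 0.3 over 15 tests), and 0.380 to 0.406 in the libraries labelled si-CIRBP and 0.284 to 0.552 in si-NC.

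**Figure D5:**
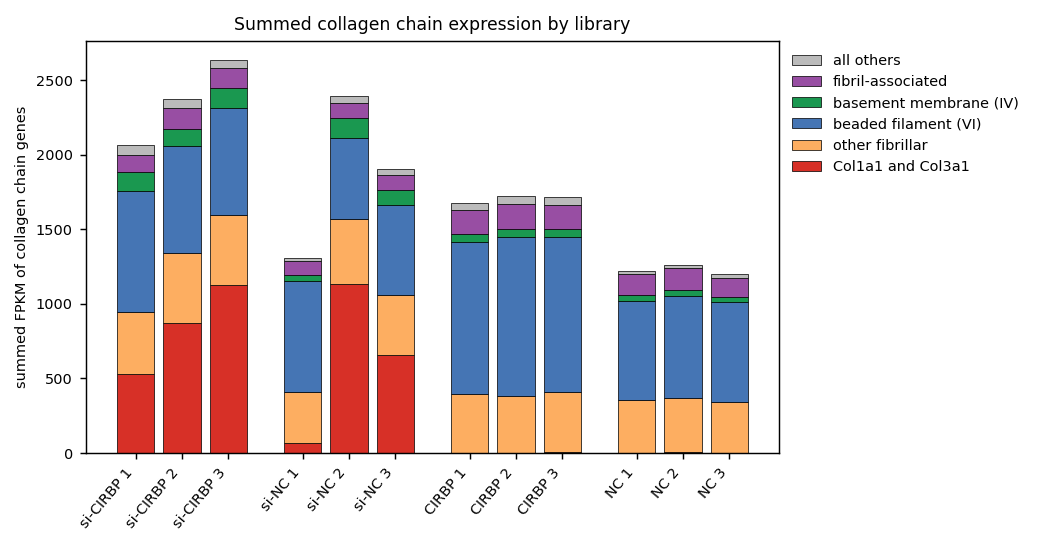
Summed FPKM of the collagen chain genes in each library, stacked by class, with Col1a1 and Col3a1 apart from the other fibrillar chains, libraries of si-CIRBP, si-NC, CIRBP and NC from left to right. The red share of Col1a1 and Col3a1 is large in the si groups except si-NC library 1 and not visible in CIRBP and NC, and the remainder is higher in CIRBP than in NC.

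Genes that modify, fold and process collagen were counted as a list of 37, of which 30 were tested. In CIRBP against NC the calls were 17 higher and 5 lower, 73.3% of those tested against 70.7% of all genes (median log2 fold change 0.18, against -0.08 over all). In si-CIRBP against si-NC they were 0 higher and 1 lower, 3.33% of those tested against 8.1% of all genes (median log2 fold change 0.18, against -0.04 over all). In si-NC against NC they were 11 higher and 2 lower, 43.3% of those tested against 31.6% of all genes (median log2 fold change 0.29, against -0.07 over all). The share called in CIRBP against NC was close to that of all genes, here 27.9% higher and 42.8% lower, while the direction leaned to higher. Plod2, a lysyl hydroxylase that sets cross-links, rose to 63.1 ± 2.06 FPKM in CIRBP, against 34.8 ± 1.52 FPKM in NC, with a log2 fold change of 0.84 (SE 0.0394, adjusted p = 6.71e-06). Loxl4, a lysyl oxidase of cross-linking, fell to 0.888 ± 0.0510 FPKM in CIRBP, against 4.18 ± 0.300 FPKM in NC, with a log2 fold change of -1.46 (SE 0.0615, adjusted p = 4.83e-06). P4ha3, a prolyl hydroxylase subunit, was the single call in the si arm, at 65.4 ± 1.52 FPKM in libraries labelled si-CIRBP, against 98.3 ± 8.37 FPKM in si-NC, with a log2 fold change of -0.58 (SE 0.0805, adjusted p = 0.0159). Serpinh1, the collagen chaperone HSP47, was named after its values were seen. It was at 178, 225 and 266 FPKM in libraries labelled si-CIRBP, 22.5, 331 and 214 FPKM in si-NC, 1.69, 1.76 and 2.01 FPKM in CIRBP and 0.615, 0.991 and 0.848 FPKM in NC, the same split between arms and the same low si-NC library 1 as Col1a1.

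Of 12 collagen receptors 10 were tested. The CIRBP arm had 6 higher and 3 lower, 90% of those tested against 70.7% of all genes (median log2 fold change 0.62, against -0.08 over all). The si arm had 2 higher and 0 lower, 20% of those tested against 8.1% of all genes (median log2 fold change 0.31, against -0.04 over all), and si-NC against NC 2 higher and 2 lower, 40% of those tested against 31.6% of all genes (median log2 fold change -0.14, against -0.07 over all). Mrc2, the endocytic receptor that clears collagen, was at 97.5 ± 4.79 FPKM in CIRBP, against 31.9 ± 0.728 FPKM in NC, with a log2 fold change of 1.58 (SE 0.0397, adjusted p = 1.18e-06), and at 44.9 ± 1.27 FPKM in libraries labelled si-CIRBP, against 24.6 ± 0.603 FPKM in si-NC, 0.84 (SE 0.0649, adjusted p = 0.00321). Itga10, an integrin subunit for collagen, was higher in both treated groups too, at a log2 fold change of 1.01 (SE 0.0427, adjusted p = 4.89e-06) in CIRBP against NC and 0.81 (SE 0.180, adjusted p = 0.0460) in si-CIRBP against si-NC. Itgb1, the beta subunit shared by collagen-binding integrins, rose in CIRBP, with a log2 fold change of 0.87 (SE 0.0229, adjusted p = 1.27e-06). Itga11, an integrin subunit of fibroblasts, was at 1.57, 16.2 and 13.6 FPKM in si-NC and at most 0.0864 FPKM in NC, with a log2 fold change of 3.00 (SE 0.703, adjusted p = 0.0240).

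Of 26 partners of fibrils 16 were tested. The calls in CIRBP against NC were 10 higher and 3 lower, 81.2% of those tested against 70.7% of all genes (median log2 fold change 0.59, against -0.08 over all). The si arm had 2 higher and 0 lower, 12.5% of those tested against 8.1% of all genes (median log2 fold change 0.31, against -0.04 over all), and si-NC against NC 8 higher and 2 lower, 62.5% of those tested against 31.6% of all genes (median log2 fold change 0.52, against -0.07 over all). Prelp, a proteoglycan that anchors fibrils to basement membrane, rose to 95.3 ± 1.83 FPKM in CIRBP, against 40.8 ± 0.702 FPKM in NC, with a log2 fold change of 1.20 (SE 0.0231, adjusted p = 6.37e-07). Thbs1, thrombospondin 1, fell to 15.0 ± 0.201 FPKM in CIRBP, against 35.5 ± 1.32 FPKM in NC, with a log2 fold change of -1.19 (SE 0.0328, adjusted p = 1.38e-06). The 2 calls of the si arm were Fbln1, fibulin 1, with a log2 fold change of 0.67 (SE 0.0796, adjusted p = 0.0111), and Tnc, tenascin C, 0.78 (SE 0.147, adjusted p = 0.0320).

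Of 20 basement membrane partners 12 were tested. The calls in CIRBP against NC were 3 higher and 5 lower, 66.7% of those tested against 70.7% of all genes (median log2 fold change 0.04, against -0.08 over all), a share near that of all genes. In si-CIRBP against si-NC the calls were 0 higher and 0 lower, 0% of those tested against 8.1% of all genes (median log2 fold change 0.16, against -0.04 over all), with 0 at an unadjusted p under 0.05 in limma. In si-NC against NC there were 4 higher and 1 lower, 41.7% of those tested against 31.6% of all genes (median log2 fold change 0.34, against -0.07 over all). Nid2 and Agrn, linkers of the network, rose in CIRBP at a log2 fold change of 0.67 (SE 0.0285, adjusted p = 4.96e-06) and 0.75 (SE 0.0372, adjusted p = 8.17e-06), and the laminin chain Lamb2 fell at -0.60 (SE 0.0287, adjusted p = 7.47e-06). Nid1 was at 4.68, 72.4 and 47.8 FPKM in si-NC and 0.134, 0.217 and 0.239 FPKM in NC, with a log2 fold change of 4.51 (SE 0.913, adjusted p = 0.0161), the pattern of Col4a5. Of 28 regulators of collagen transcription 24 were tested. The calls in CIRBP against NC were 7 higher and 10 lower, 70.8% of those tested against 70.7% of all genes (median log2 fold change -0.04, against -0.08 over all), a split like that of all genes. The si arm had 0 higher and 1 lower, 4.17% of those tested against 8.1% of all genes (median log2 fold change -0.15, against -0.04 over all), and si-NC against NC 6 higher and 4 lower, 41.7% of those tested against 31.6% of all genes (median log2 fold change 0.11, against -0.07 over all). Twist1, a mesenchymal factor, rose in CIRBP, with a log2 fold change of 0.98 (SE 0.0226, adjusted p = 1.02e-06), and Tgfb1, which induces collagen in many cells, did too, 0.38 (SE 0.0193, adjusted p = 9.04e-06). In the si arm Tgfb1 was not called, at 102 ± 6.7 FPKM in libraries labelled si-CIRBP, against 125 ± 7.6 FPKM in si-NC. Its log2 fold changes in the arms differed by 0.68 (SE 0.0809, adjusted p = 0.000623). It was also higher in si-NC than in NC, at 0.68 (SE 0.0554, adjusted p = 0.00183). Scx, the tendon factor scleraxis, fell in CIRBP against NC, with a log2 fold change of -1.05 (SE 0.0557, adjusted p = 1.06e-05). Ccn2, connective tissue growth factor, was at 446 ± 63.8 FPKM in si-NC, against 144 ± 4.81 FPKM in NC, with a log2 fold change of 1.61 (SE 0.109, adjusted p = 0.00109).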

How the data were processed

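Poly-A selected RNA was sequenced in 12 rat libraries. The authors deposited 1 table of FPKM values with a gene name for each of 18344 rows, and its columns were assigned to the 12 samples by group name and number, with 0 value columns left unused. The NC and CIRBP columns carry the prefix ad, which their titles lack and the labels do not explain. Whether it marks a further difference between the arms cannot be told. Bowtie2 2.3.3.1, Cufflinks 2.2.1, GRCm38 and mm10 are listed per the submitters' processing notes, with no role for any of them. These builds are of mouse while the row identifiers are rat Ensembl genes, so the build used is unclear and no coordinate comes from the table. How reads shared by similar genes were counted, and whether strand was used, is not stated in the labels or the table. No counts were used, so limits from depth cannot be computed.

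FPKM values were put on log2(FPKM + 1) without further scaling, and rows with at least 1 FPKM in 3 of the 12 libraries were kept (14257). The test was limma 3.58.1 in R 4.3.3, two-sided, with an intensity trend and Benjamini-Hochberg adjustment over all 14257 rows. Each comparison of 2 groups used its 6 libraries, and the difference between arms used all 12. When tested on simulated data with the spread of these libraries, most changed genes were recovered, but false calls exceeded the nominal share, most in the difference between arms and least in CIRBP against NC. Ratios between chains were compared by exact permutation over libraries, adjusted over 15 tests.

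The collagen genes, the other lists and the tests were chosen with earlier results of these data known. Values of every library are given for the 12 most abundant collagen genes, for up to 6 called genes per direction and comparison with the largest log2 fold change, no overlap and a mean of at least 1 FPKM in the higher group, and for their partner chains. From each other list up to 3 called genes with the smallest adjusted p are named. Alternatives were a fit over all 12 libraries, 2 rescalings, a pseudocount of 0.1, no filter, the replicate number as a block and leaving out each library. Promoter windows are from RefSeq (GRCr8), matched by symbol.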

Additional observations from a re-analysis of the deposited data

Results flagged for a closer look

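In 4 collagen chain genes the difference between the arms was called, by limma over all 12 libraries with adjustment over all genes. That is 17.4% of the 23 tested, against 17.8% of all genes, a share close to that background. The difference is the log2 fold change of CIRBP against NC minus that of the libraries labelled si-CIRBP against si-NC. On simulated data false calls exceeded the nominal share most in this difference, so its adjusted p can be too small. Col5a3 was higher in both treated groups and more so in CIRBP, with a difference of 0.68. Col18a1 was higher in all 3 CIRBP libraries than in NC and showed no call in the libraries labelled si-CIRBP, with a difference of 0.59. Col20a1 was lower in both treated groups and more so in CIRBP, with a difference of -0.82. Col8a2 was lower in all 3 CIRBP libraries than in NC while all 3 libraries labelled si-CIRBP lay above si-NC, with a difference of -1.07. Col8a2 was tested only because it reached 1 FPKM in the libraries labelled si-CIRBP, and Col20a1 only because it did in si-NC and NC. The differences of Col8a2 and Col20a1 are thus descriptions. The levels of Col8a2, Col18a1 and Col20a1 were at or below 3.73 FPKM in every library, and that of Col5a3 was 21.1 FPKM or more.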

How the results depend on the processing

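Over the collagen log2 fold changes given above, 698 values under an alternative kept direction and call, 44 lost the call, 25 gained it and 7 changed sign. The sign changes of Col1a1 (-0.0671 to 1.90 over fits without single libraries) and Col3a1 (-0.14 to 1.88) in si-CIRBP against si-NC came without si-NC library 1, as did that of Col4a1 in the difference between arms (-0.51 to 0.50). The difference for Col16a1, which was never called, was 0.0078 scaled to one median, 0.027 by median ratios and -0.0578 to 0.0264 without single libraries. In si-CIRBP against si-NC, the 1155 genes called became 4218 in a fit over all 12 libraries and 100 with the replicate block, and the 4 collagen genes became 9 and 0. At an unadjusted p under 0.05 in limma, 9 collagen genes passed with the block and 8 without it. Leaving out single libraries gave 75 (without si-NC library 3) to 1889 (without si-CIRBP library 1) genes and 0 to 4 collagen genes. The 3 fits that gave 0 (without si-CIRBP library 2, si-CIRBP library 3 or si-NC library 3) had 4, 5 and 6 collagen genes at an unadjusted p under 0.05. In CIRBP against NC, the 10077 genes gave 9485 to 9731 and the 17 collagen genes 16 to 18. For the difference between arms, 2535 genes gave 1596 (without CIRBP library 2) to 4503 (without si-CIRBP library 1), and 4 collagen genes gave 3 to 9, and 7 without the intensity trend. In si-NC against NC, 4503 genes became 2584 with the replicate block and 1270 (without NC library 2) to 7033 (without si-NC library 1) without single libraries, and 8 collagen genes became 7 to 16. The causes were not tested. The log2 ratio of summed collagen FPKM in CIRBP over NC, 0.47, was 0.62 scaled to one median, 0.60 by median ratios and 0.45 to 0.49 without single libraries. The ratio for si-CIRBP over si-NC, 0.34, ranged over 0.13 to 0.55, and that for si-NC over NC, 0.60, over 0.39 to 0.81. Libraries of the same number did not deviate together by the limit of 0.1 in every pair, at r of 0.0142, -0.0898 and 0.0405 in the si arm, 0.0965, 0.0482 and 0.0995 in CIRBP and NC, where each CIRBP library matched its own number best, and 0.00653, -0.0334 and -0.0344 in si-NC and NC. The numbers were therefore not used as pairs in the main fits. With 3 libraries in each group, such correlations cannot tell whether libraries of the same number were paired. Each symbol had 1 row, so summing rows was not run.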
